A study of Macaca mulatta with 20 samples.

Results

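The B cell genes described here are 9 genes that mark B lymphocytes or act in them: MS4A1, CD22, CR2, CD79A, CD79B, BLK, BANK1, PAX5 and POU2AF1. A gene was read from every probe set whose annotation holds its symbol and no other. By this rule 6 of the 9 genes were read on the rhesus arrays, through 13 probe sets, and all 9 on the human arrays, through 24 probe sets. They stand among 14132 rhesus and 19775 human array genes with such a probe set. PAX5, CR2 and POU2AF1 had none on the rhesus arrays and were read on the human arrays alone.

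RNA from 5 rhesus macaque sources was hybridized to 20 arrays. Each source was read on 2 arrays with probes for rhesus transcripts (rhesus arrays) and 2 with probes for human transcripts (human arrays). The paper on these arrays reports that single-base mismatches between human probes and rhesus transcripts lower the signal. What part mismatches have in the human array levels below was not tested. Of the sources 4 were tissues (thymus, testis, pancreas and cerebral cortex), and the other was a culture of immortalized fibroblasts. The labels give no treatment, age, sex or number of animals for any source. Arrays of 1 source are named technical replicates, so the p-values below measure the spread between arrays of the same RNA and compare 5 RNA preparations. Levels of a named probe set are given for both arrays of a source, and in other pairs of values the first is rhesus and the second human.

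B cells recognise antigen with a surface immunoglobulin that is held in a complex with CD79A and CD79B, the chains that carry the signal into the cell. MS4A1 (CD20), CD22 and CR2 (CD21) sit on the B cell surface beside this receptor. BLK, a kinase of the Src family, and BANK1, an adaptor protein, act in signalling below it. PAX5 holds cells in the B lineage, and POU2AF1 (also called OBF-1) assists octamer factors at immunoglobulin genes. The thymus is foremost an organ of T cell development, and it is also known to hold a smaller population of B cells.

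The values are on the log2 scale, and 52766 rhesus and 54613 human probe sets were not controls. Control probe sets exist for bacterial transcripts, and those for transcripts not added to the samples had source means spanning 1.92 to 3.56 (rhesus) and 2.12 to 3.22 (human). A level within this range is like that of a probe set without its transcript in the sample, and a difference from such a level is no exact fold change. The median of all tested values, 3.33 and 2.95, was itself within this range. The pancreas pair of arrays was the least alike, with a within-pair SD of 0.281 and 0.218, against 0.137 to 0.170 and 0.150 to 0.166 for the other sources. Spiked control transcripts were brighter in pancreas than in the other sources by 1.09 and 1.11. Of the marker genes chosen to check the labels, all were higher in their own source on both array types except CD3E, which did not pass the test on the human arrays and was not read on the rhesus arrays.

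Sources were compared by limma, each with the mean of the remaining 4, and a call needed an adjusted p (Benjamini-Hochberg) below 0.05 together with a log2 difference of at least 1. The 5 contrasts of an array type share all of its arrays. When the probe set of highest mean over the 10 arrays stood for its gene, 3 of 6 B cell genes on the rhesus arrays were higher in thymus, as were 16.7% of all genes. These were MS4A1, CD79A and CD79B. The mean that chose the probe set includes thymus. Over the other 4 sources the chosen probe set of CD79B averaged 3.19, below its second, MmugDNA.37827.1.S1_at, at 3.37. For MS4A1 the chosen one averaged 2.722 there and Mmu.13012.1.S1_at 2.725. Both genes were thus read from a probe set that thymus itself made the brightest. The human arrays called 2 of 9, MS4A1 and CD79A, beside 9.65% of all genes. No B cell gene or probe set was called lower in thymus, where 18.1% and 10.1% of all genes and 12% and 6.12% of all probe sets were. Counted by probe set, 5 of 13 rhesus and 3 of 24 human ones were higher, beside 14.7% and 7.46% of all. The median thymus difference of the B cell genes was 0.65 and 0.20, and over all genes it was -0.063 and -0.040. In RNA from whole tissue, fewer cells of a type and less RNA per cell cannot be told apart.

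**Figure D1:**
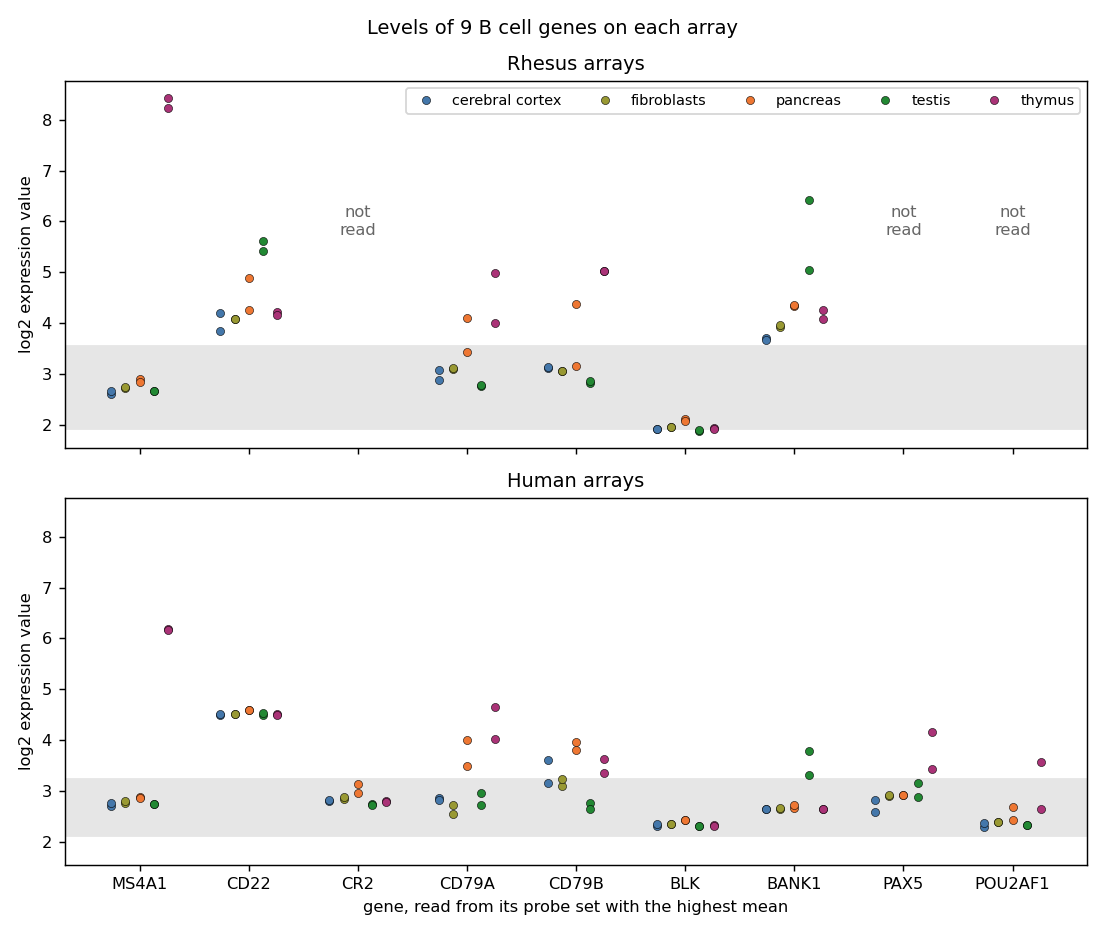
Log2 expression value (y axis) of each B cell gene (x axis), read from its brightest probe set, with 1 point per array and colours for the 5 sources; the upper panel shows rhesus arrays, the lower panel shows human arrays, and the grey band spans the source means of the control probe sets that were not spiked. MS4A1 stood far above the band in thymus alone, at 8.24 and 8.43 (rhesus) and at 6.18 and 6.16 (human), while CD22 and BANK1 were highest in testis on the rhesus arrays.

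MS4A1 (CD20) gave the largest thymus difference of the 6 genes read on the rhesus arrays and of the 9 on the human arrays. With its brightest rhesus probe set, MmugDNA.5951.1.S1_at, the 2 thymus arrays were at log2 levels of 8.24 and 8.43. The cortex arrays were at 2.60 and 2.67, fibroblasts at 2.72 and 2.73, pancreas at 2.89 and 2.85 and testis at 2.67 and 2.66. Thymus thus stood above all 8 other arrays, which lay within the range of the bacterial controls. The thymus difference was 5.62 (SE 0.052, adjusted p = 7.17e-09). None of the other 4 sources differed by a call from its neighbour in the order of levels.

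The brightest human probe set of MS4A1, 228592_at, read 6.18 and 6.16 in thymus and between 2.71 and 2.88 on the 8 other arrays. Its thymus difference was 3.39 (SE 0.020, adjusted p = 5.87e-09). The difference was smaller in size than on the rhesus arrays, but whether the array types differ was not tested, because the tables may have been normalized separately.

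The further MS4A1 probe sets did not give the same difference. Among the rhesus ones, Mmu.13012.1.S1_at read 5.82 and 5.88 in thymus and at most 2.86 elsewhere, and MmugDNA.12754.1.S1_s_at read 6.90 and 6.73 in thymus and at most 2.45 elsewhere. Both were called, with differences of 3.12 (SE 0.036, adjusted p = 1.49e-08) and 4.47 (SE 0.046, adjusted p = 1.07e-08). The last of them, MmugDNA.5953.1.S1_at, stayed between 1.96 and 2.09 on all 10 arrays, with a difference of -0.017 (adjusted p = 0.543). The human 210356_x_at read 3.02 and 2.86 in thymus and between 1.81 and 1.84 elsewhere, a difference of 1.12 (SE 0.039, adjusted p = 5.3e-06). The remaining human probe sets, 228599_at and 217418_x_at, gave thymus differences of -0.011 and -0.0074. Read from any of these 3 flat probe sets, MS4A1 would have no thymus call.

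CD22, an inhibitory receptor that binds sialic acid, was not called in thymus by any of its 6 probe sets. The brightest rhesus probe set, MmuSTS.3487.1.S1_at, read 4.21 and 4.16 in thymus, inside the range of cortex (3.84 and 4.21), fibroblasts (4.07 and 4.08) and pancreas (4.88 and 4.26). Its thymus difference was -0.36 (adjusted p = 0.133). The brightest human probe set, 38521_at, lay between 4.49 and 4.60 on all 10 arrays, above the bacterial controls and with a thymus difference of -0.026. The human probe sets 204581_at, 220674_at and 217422_s_at had thymus differences of -0.19, -0.078 and -0.018, with no call.

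CR2, the complement receptor CD21, was read on the human arrays alone and stayed near the controls. Probe set 244097_at lay between 2.72 and 3.13 and 205544_s_at between 2.20 and 2.26 on the 10 arrays. Their thymus differences were -0.071 and -0.010, and neither was called in any source.

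CD79A and CD79B, the signalling chains of the B cell receptor, were both higher in thymus on the rhesus arrays, by less than MS4A1. The only rhesus probe set of CD79A, MmugDNA.22843.1.S1_at, read 4.99 and 4.01 in thymus. Pancreas followed at 3.42 and 4.09, and cortex, fibroblasts and testis lay between 2.76 and 3.10. The lower thymus array was below the higher pancreas array, so these groups overlapped. The thymus difference was 1.35 (SE 0.27, adjusted p = 0.00616), and against pancreas alone it was 0.74 (SE 0.34, adjusted p = 0.0972), which did not pass. Without the first thymus array the difference from the other sources was 0.86 and no longer a call.

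In the human table CD79A, by 205049_s_at, read 4.02 and 4.66 in thymus, 3.49 and 4.00 in pancreas and between 2.54 and 2.97 in the other sources. Both thymus arrays were above all others, the lower by a narrow margin over pancreas. The thymus difference was 1.32 (SE 0.20, adjusted p = 0.00369) and the difference from pancreas 0.59 (SE 0.26, adjusted p = 0.0956). The further probe set 1555779_a_at read 2.85 and 4.17 in thymus and 3.66 and 2.80 in pancreas, so its thymus pair spanned most of its range. Its difference was 0.56 (SE 0.37, adjusted p = 0.322).

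CD79B read 5.02 on both thymus arrays with the rhesus probe set MmuSTS.3580.1.S1_at. The pancreas arrays were at 4.37 and 3.15, and cortex, fibroblasts and testis lay between 2.82 and 3.13. Thymus stood above all others, with a difference of 1.83 (SE 0.28, adjusted p = 0.00157), and it was also called above pancreas alone, by 1.26 (SE 0.35, adjusted p = 0.0192), as 19.9% of all probe sets were. The second rhesus probe set, MmugDNA.37827.1.S1_at, read 3.29 and 3.24 in thymus and between 3.25 and 3.62 elsewhere, a difference of -0.10. The human 205297_s_at was highest in pancreas, at 3.97 and 3.81, with thymus at 3.64 and 3.34 and a thymus difference of 0.20 (SE 0.14, adjusted p = 0.318). The human probe sets 1555746_at and 1555748_x_at gave -0.10 and -0.089. CD79B was therefore called in thymus by 1 of its 5 probe sets.

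**Figure D2:**
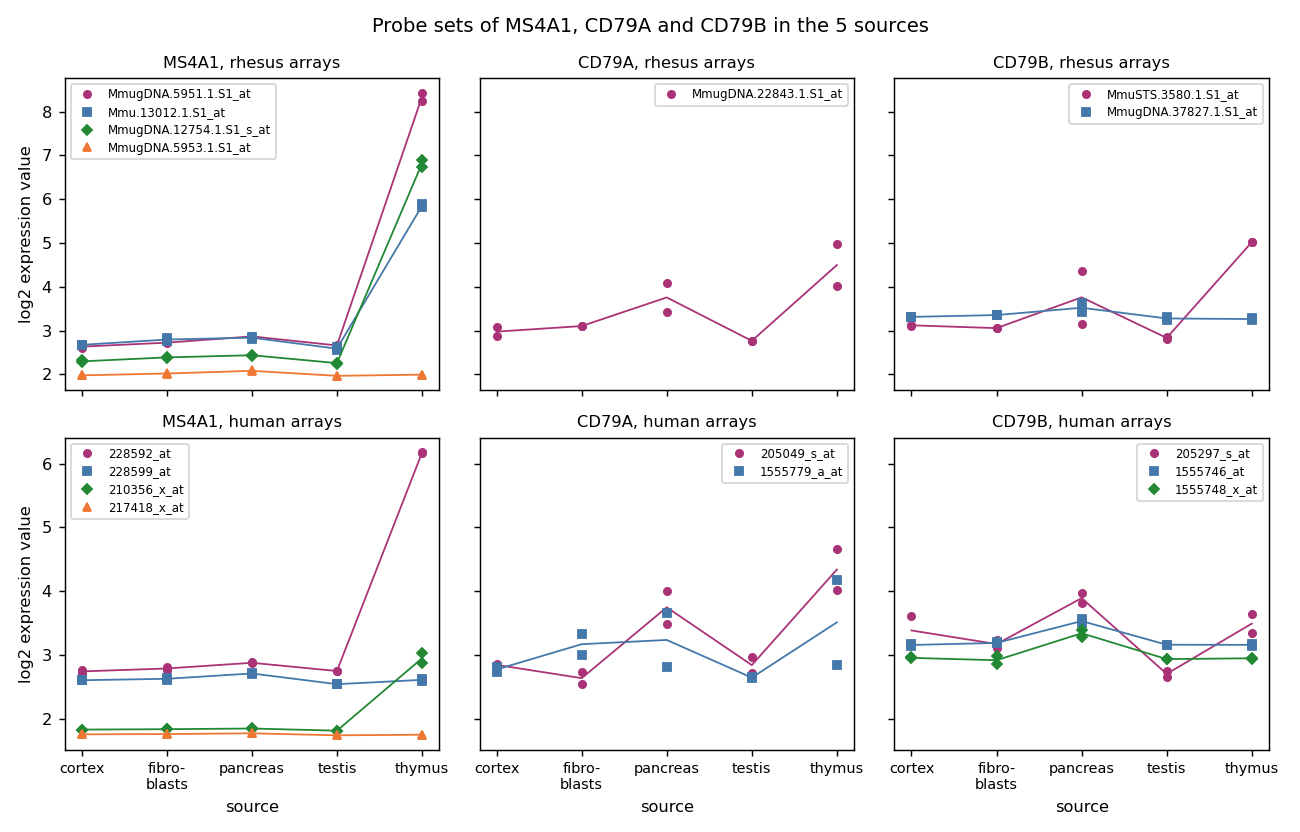
Log2 expression value (y axis) of every probe set of MS4A1, CD79A and CD79B in the 5 sources (x axis), with 1 point per array, a line through the source means and a symbol and colour for each probe set; the upper panels show rhesus and the lower panels human arrays. Rhesus MS4A1 rose in thymus in 3 of 4 probe sets and stayed at 2.00 and 1.99 in the fourth, and CD79B rose in 1 of 2.

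BLK stayed at or just below the level of the controls in all 5 sources. Its rhesus probe set MmugDNA.12736.1.S1_at lay between 1.87 and 2.11, and its human probe sets 206255_at and 210934_at between 2.30 and 2.43 and between 2.07 and 2.13. The thymus differences were -0.039, -0.029 and -0.016, with no call in any source. At levels inside or just below the range of controls that match no sample, no thymus difference of BLK was detected.

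PAX5, the transcription factor of the B lineage, was above the other 8 human arrays in thymus but did not reach the minimum difference. Probe set 221969_at read 3.43 and 4.15 in thymus, and 2.58 to 3.16 elsewhere, with testis next at 3.16 and 2.88. The difference was 0.91 (SE 0.19, adjusted p = 0.0134). The second probe set, 206802_at, lay between 2.40 and 2.69 with a thymus difference of -0.061.

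POU2AF1, the coactivator, differed between the thymus arrays of a pair. Probe set 205267_at read 3.56 and 2.65 in thymus, and 2.30 to 2.67 elsewhere, so the lower thymus array overlapped pancreas. The thymus mean of 3.10 was itself within the range of the bacterial controls. The difference was 0.71 (SE 0.22, adjusted p = 0.063), and without the second thymus array it was 1.16. Whether it reaches the minimum difference thus turns on 1 array. Probe set 1569675_at lay between 2.10 and 2.17.

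**Figure D3:**
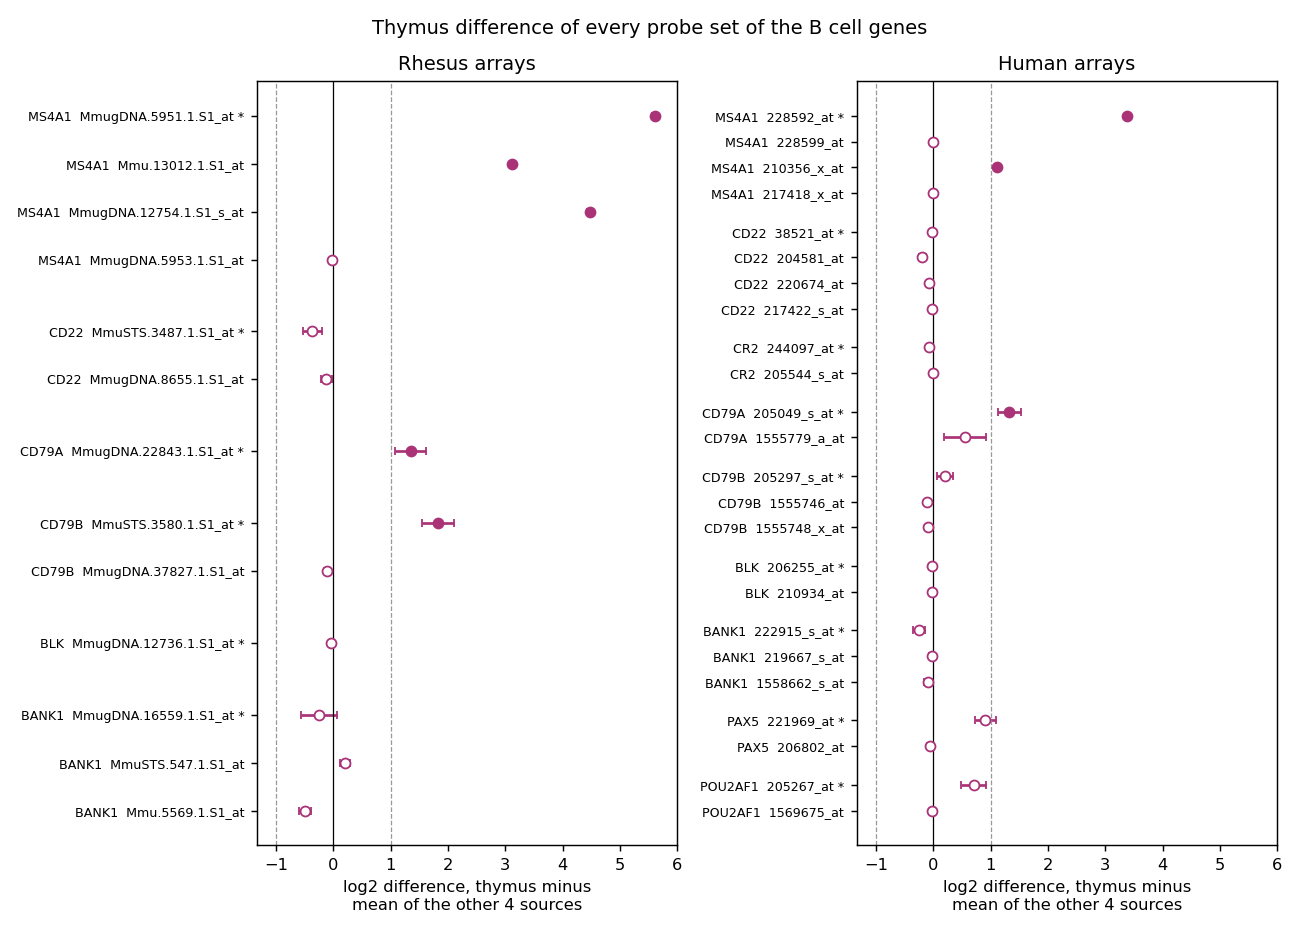
Log2 difference of thymus from the mean of the other 4 sources (x axis) for every probe set of the B cell genes (y axis, the probe set with the highest mean of each gene marked by an asterisk), with bars for the standard error, filled points for calls and dashed lines at a difference of 1 in either direction. On the rhesus arrays 5 of 13 points are filled and on the human arrays 3 of 24, and within MS4A1 the points run from -0.017 to 5.62 on the rhesus arrays.

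The disagreement between probe sets was tested as the within-array difference of each further probe set from the brightest one of its gene. For rhesus MS4A1, the thymus difference of Mmu.13012.1.S1_at minus that of the brightest probe set was -2.49 (SE 0.086, adjusted p = 4.13e-07). It was -1.14 (SE 0.11, adjusted p = 7.89e-05) for MmugDNA.12754.1.S1_s_at and -5.63 (SE 0.090, adjusted p = 3.57e-08) for MmugDNA.5953.1.S1_at. The second CD79B probe set gave -1.93 (SE 0.30, adjusted p = 0.00107). These 4 of 7 comparisons were called, where 26.9% of all such comparisons on the rhesus arrays were. The probe sets of CD22 and BANK1 did not differ by a call in thymus.

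Among 15 comparisons in the human table, those of the 3 further MS4A1 probe sets were called, at -3.40 to -2.27, beside 21% of all. The further probe sets of PAX5 and POU2AF1 gave -0.97 (adjusted p = 0.00868) and -0.72 (adjusted p = 0.0316), below the minimum size. For CD79A the value of -0.77 did not pass (adjusted p = 0.146).

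BANK1 and CD22 were higher in testis on the rhesus arrays, and neither was called in thymus against the mean of the others. By the brightest probe set these were 2 of 6 genes, and 16.1% of all genes were higher in testis. Counted by probe set they were 4 of 13, beside 12.8% of all. All 4 had both testis arrays above the other 8 arrays, as 9.41% of all probe sets did.

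For CD22, MmuSTS.3487.1.S1_at read 5.42 and 5.62 in testis, above the highest other array, in pancreas, at 4.88. The testis difference was 1.31 (SE 0.17, adjusted p = 0.00084). Testis was above thymus by 1.34 (SE 0.22, adjusted p = 0.00293), as 11.4% of all probe sets were, and above pancreas by 0.95 (adjusted p = 0.00779), which is under the minimum difference. The second rhesus probe set, MmugDNA.8655.1.S1_at, lay between 2.21 and 2.60 in all sources, and the human probe sets of CD22 were not called in testis.

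BANK1 was higher in testis with all 3 rhesus probe sets. The arrays of testis read 6.42 and 6.47 with MmuSTS.547.1.S1_at, where thymus followed at 4.14 and 4.46 and pancreas at 3.66 and 3.55. Its testis difference was 2.88 (SE 0.083, adjusted p = 9.53e-07), and testis was above thymus by 2.15 (SE 0.11, adjusted p = 9.72e-06). With the same probe set thymus was called above cortex by 1.23 (adjusted p = 8.88e-05) and above fibroblasts by 1.02 (adjusted p = 0.00028), as 18.1% and 15.1% of all probe sets were. Thymus was above pancreas by 0.70 (adjusted p = 0.00151), under the minimum difference. The other 2 rhesus probe sets of BANK1 did not place thymus above cortex or fibroblasts by a call.

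The brightest BANK1 probe set, MmugDNA.16559.1.S1_at, read 6.42 and 5.04 in testis and between 3.67 and 4.36 elsewhere. The difference was 1.69 (SE 0.31, adjusted p = 0.00426), and without the first testis array it fell just below the minimum, at 0.998. The dimmest, Mmu.5569.1.S1_at, read 4.53 and 4.22 in testis and at most 3.40 elsewhere, a difference of 1.45 (SE 0.11, adjusted p = 5.47e-05). The human 222915_s_at read 3.79 and 3.31 in testis and between 2.63 and 2.71 elsewhere, so both testis arrays were above all others. That difference was 0.90 (SE 0.11, adjusted p = 0.00185), and it did not reach the minimum difference. The other human probe sets of BANK1 gave testis differences of 0.022 (219667_s_at, adjusted p = 0.695) and -0.11 (1558662_s_at, adjusted p = 0.251). Probe set 222915_s_at was the only one of 24 human probe sets with both testis arrays above the rest, as 5.8% of all probe sets had.

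**Figure D4:**
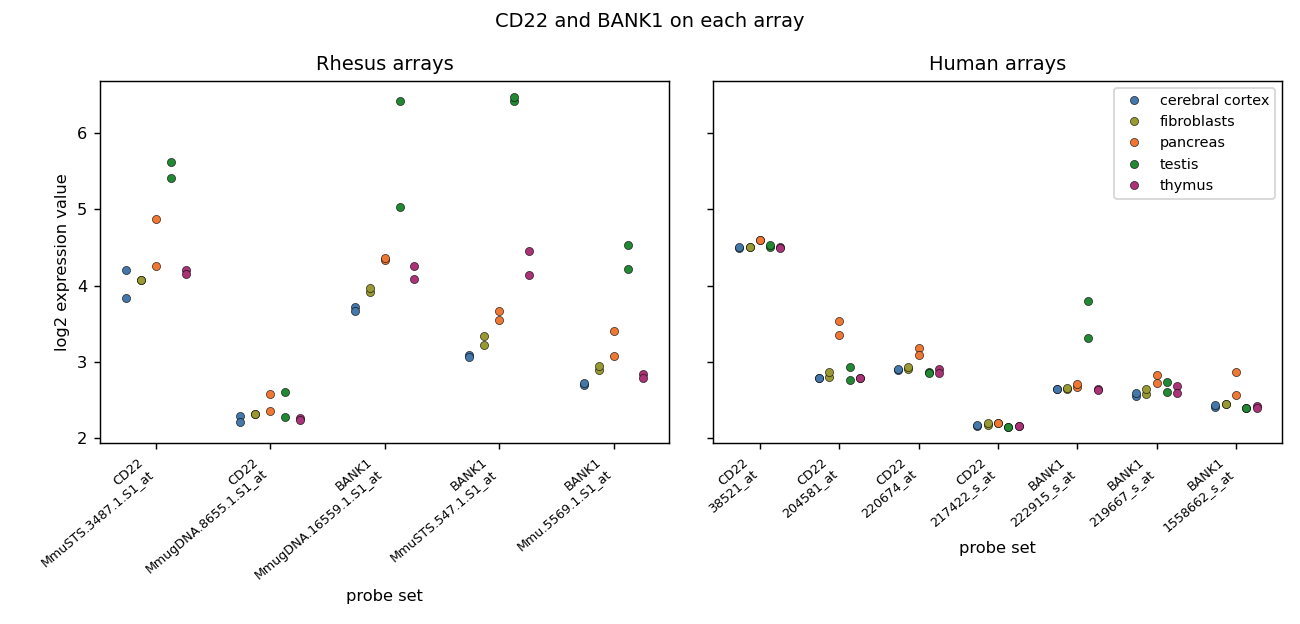
Log2 expression value (y axis) of every probe set of CD22 and BANK1 (x axis) on each array, with colours for the 5 sources, rhesus arrays on the left and human arrays on the right. The testis arrays lie above all others in the brightest rhesus probe set of CD22, in all 3 rhesus probe sets of BANK1 and in 222915_s_at of BANK1 on the human arrays.

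Some genes of developing T cells were also read in testis, and they were chosen for display after their values were seen. Rhesus arrays put DNTT, the terminal transferase of immature lymphocytes, at 7.88 in testis, 12.98 in thymus and at most 3.67 in the other 3 sources. The lipid-presenting molecule CD1B was at 8.45, 13.97 and at most 3.99. RAG2, TRAT1 and CD8B were at 4.85, 5.396 and 4.76 in testis and at most 3.95, 2.81 and 2.68 in these 3 sources, and RAG2 was called above only 2 of them. Human arrays put DNTT at 5.34 in testis, 10.82 in thymus and at most 2.91 elsewhere. Human RAG2 (3.29 in testis and up to 3.53 in the other 3 sources), TRAT1 (3.11 and up to 3.12) and CD1B (3.50 and up to 2.81) were called above none of the 3 in testis, and CD8B (3.40 and up to 2.69) was called above 2. The T cell list as a whole had 0 of 9 rhesus genes called higher in testis and 4 lower, CD4, CD28, CD5 and CD7, in a contrast whose mean includes thymus. Its rhesus log2 levels summed to 36.4 to 37.0 per array in testis, against 28.6 to 31.1 in cortex, fibroblasts and pancreas and 81.4 to 83.0 in thymus. In testis CD8A (7.40, and at most 4.95 in these 3 sources), CD8B and TRAT1 stood highest above them, while CD4 (2.65), CD28 (2.58), CD6 (3.21) and CD7 (2.36) had their lowest level of all 5 sources there. With the brightest rhesus probe sets, DNTT and CD1B were higher in thymus than in testis, and CD22 and BANK1 were higher in testis than in thymus. MS4A1 was at 2.66 in testis, at the level of the sources other than thymus. Whether the testis levels of CD22 and BANK1 are related to those of the T cell genes was not tested.

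MS4A1 was called lower in cortex, fibroblasts, pancreas and testis on the rhesus arrays, with differences of -1.51 to -1.22 for its brightest probe set. This follows from the contrast, whose mean of the other 4 sources includes thymus, since the levels of these sources did not differ from each other by a call. Lower calls for BANK1 in cortex (-1.34) and fibroblasts (-1.08) with MmuSTS.547.1.S1_at come from a mean that includes testis, but both sources were also called below thymus alone. In all, 3 of 13 rhesus probe sets were lower in cortex and 3 in fibroblasts, and 2 in pancreas and 2 in testis, beside 14.4%, 12.5%, 17.6% and 7.69% of all probe sets. None was called higher in cortex, fibroblasts or pancreas, where 12.7%, 11.2% and 6.97% of all were. Of the 24 human probe sets 0 were called in cortex, fibroblasts, pancreas or testis by limma. Among all human probe sets 7.72%, 7.12%, 3.1% and 6.05% were higher in these sources and 6.47%, 5.58%, 10.7% and 3.59% lower, and by gene 8.67% were higher in testis.

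Pancreas arrays above all others were frequent among all probe sets, and not only among those of the B cell genes. Both pancreas arrays were above the other 8 arrays for 15 of 24 human probe sets, by 0.021 to 0.70, where this held for 40.9% of all human probe sets. Among rhesus probe sets it held for 3 of 13, by 0.091 to 0.22, beside 32.5% of all. Both thymus arrays were above the rest for 4 of 13 rhesus probe sets and 4 of 24 human ones, with 14.3% and 8.63% of all. The small pancreas differences went with the brighter spiked controls there, whose part in them was not tested.

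At least 1 source mean was above the bacterial controls for 9 of 13 rhesus and 10 of 24 human probe sets of the B cell genes. The rhesus probe sets that did not rise above the control range belong to BLK, CD22, CD79B and MS4A1, and the 5 source means of each differed by 0.11 to 0.26 at most. The 14 human probe sets that did not rise above the control range differed by 0.032 to 1.14 between their source means. The widest of these, 210356_x_at of MS4A1, is 1 of the 3 human thymus calls, although its thymus mean of 2.94 is itself within the control range. No source was called for 21 of the 24 human probe sets.

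Other genes of the B cell were taken from lists. For B cell receptor signalling, limma called 9 of 15 rhesus genes higher and 0 lower in thymus, with a median difference of 1.42, and 6 of 17 human genes higher and 0 lower, with a median of 0.61. Over all genes 16.7% and 9.65% were higher in thymus and 18.1% and 10.1% lower. PRKCB, a protein kinase C, was higher by 4.87 and 3.58, although its cortex level of 11.89 and 10.90 was above its thymus level of 10.24 and 9.84. Of its 2 rhesus probe sets 1 was called higher. PTPN6, the phosphatase SHP-1, was higher by 4.15 and 2.69. BLNK, the linker that joins SYK to its targets, was higher by 3.90 and 3.41, and the kinase SYK itself by 3.20 and 1.59. INPP5D, a lipid phosphatase, was called with its brightest rhesus probe set (4.34) and not with its brightest human one (0.61), though 1 of 3 human probe sets was called higher. PIK3CD, a lipid kinase, was called with its brightest human probe set alone (0.49 and 2.45). Several of these genes are also used by T cells and myeloid cells.

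Transcription factors of the B lineage were called in both directions. Thymus had 4 of 10 higher and 3 lower in the rhesus table, and 6 of 14 higher and 1 lower in the human table, beside 16.7% and 9.65% of all genes higher and 18.1% and 10.1% lower. IKZF1 was higher by 6.21 and 4.05, BCL11A by 4.24 and 4.55, IKZF3 by 3.13 and 6.13, and BCL6 by 2.33 and 2.29. IKZF1 and IKZF3, also known as Ikaros and Aiolos, are zinc finger factors of lymphocytes. EBF1, an early factor of the B lineage that was named after its values were seen, was lower by -1.71 and -1.49. IRF8 was called in opposite directions, at -2.16 and 1.04, and 2 of its 3 rhesus probe sets were higher in thymus while the brightest one read 11.23 in cortex. TCF3 read -4.36 with its brightest rhesus probe set, though 3 of 7 were called higher, and 0.80 on the human arrays with no call.

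Of B cell surface and adhesion genes, thymus had 7 of 15 rhesus ones higher and 1 lower, and 5 of 22 human ones higher and 1 lower. Over all genes 16.7% and 9.65% were higher, and 18.1% and 10.1% were lower. No thymus call was made for 7 rhesus and 16 human genes of the list. The cytokine gene LTB was higher by 7.03 and 6.23, the tetraspanin CD37 by 6.07 and 5.11, and CD83, which activated cells carry, by 3.50 and 2.26. Which cells of the thymus held the transcripts of LTB, CD37 and CD83 was not tested. CD24 was lower in thymus by -2.11 and -2.21, with its highest level, 11.97 and 9.89, in pancreas. FCRL2 and FCRLA, relatives of the Fc receptors, were called on the rhesus arrays at 2.17 and 1.47 and gave -0.020 and -0.050 on the human arrays. On the rhesus arrays 1 of 3 probe sets of FCRL2 and 1 of 2 of FCRLA were called higher.

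Of plasma cell and immunoglobulin genes, 2 of 7 rhesus ones were higher and 3 lower in thymus, and 3 of 12 human ones were higher and 1 lower, beside 16.7% and 9.65% of all genes higher and 18.1% and 10.1% lower. MZB1, a chaperone of antibody assembly, was higher in thymus by 4.89 and 2.31. The immunoglobulin light chain genes IGKC and IGLC1 were measured on the human arrays alone and were higher by 3.52 and 4.98. Of their probe sets, 1 of 8 and 3 of 9 were called, and light chain genes of near identical sequence may share signal. JCHAIN, which joins antibody units, was higher by 5.33 in the rhesus table, where 1 of its 2 probe sets was called, and at 0.061 in the human table.

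Genes of this list called lower in thymus have their highest level in another source by the nature of the contrast. DERL3, a protein of the endoplasmic reticulum, was lower by -1.88 and -1.51, with 10.43 and 9.29 in pancreas, and SDC1 read -1.62 and -0.91, with only the first called and with 10.46 and 7.23 in fibroblasts. PRDM1 read -1.05, a call, and -0.25. XBP1, which drives secretory capacity in plasma cells and gland cells, was not called in thymus (0.92 and -0.10).

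**Figure D5:**
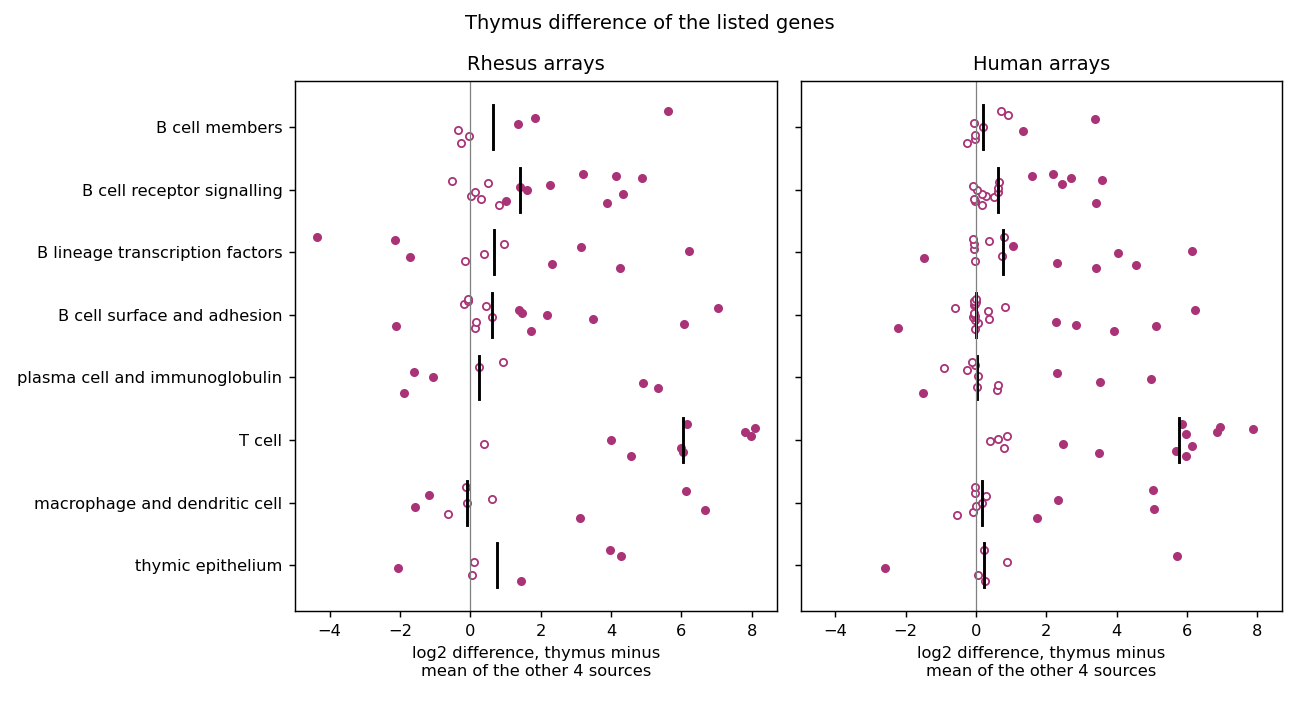
Log2 difference of thymus from the mean of the other 4 sources (x axis) for the genes of each list (y axis), read from the brightest probe set, with filled points for calls and a black bar at the list median; rhesus arrays are on the left and human arrays on the right. The T cell list has medians of 6.04 and 5.77, and the B cell genes 0.65 and 0.20 with MS4A1 as their highest point.

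Genes of other cells in the thymus were measured beside these. Thymus had 8 of 9 rhesus and 10 of 14 human T cell genes higher, beside 16.7% and 9.65% of all genes, with medians of 6.04 and 5.77. TRAT1, CD8A, CD8B and ZAP70 led, at 8.09, 7.97, 7.82 and 6.15 by rhesus and 6.94, 5.98, 6.86 and 5.87 by human probe sets. CD5 (5.998 and 0.40) and CD7 (3.995 and 0.89) were called with the brightest rhesus probe set and not with the brightest human one, though 1 of 2 human probe sets of CD5 was called higher. The 14 T cell genes of the human arrays summed to 99.4 to 99.9 in thymus and 36.2 to 44.0 in the other sources.

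Of the macrophage and dendritic cell genes, 3 of 9 rhesus ones were higher and 2 lower, and 4 of 11 human ones were higher and 0 lower, where 16.7% and 9.65% of all genes were higher and 18.1% and 10.1% lower. CD1C was higher by 6.66 and 5.05, the lysozyme gene LYZ by 6.13 and 5.03 and AIF1 by 3.13 and 1.72. Which cells of the thymus held the transcripts of CD1C, LYZ and AIF1 was not tested. ITGAM was lower by the rhesus probe set, at -1.17, and at 0.27 by the human one. The list had a median thymus difference of -0.099 and 0.16, beside -0.063 and -0.040 over all genes. The rhesus sum of the list was 51.9 to 53.7 in thymus and 33.5 to 46.1 elsewhere, and the human sum 50.9 to 52.5 and 35.3 to 39.7. Thymic epithelium gave 3 of 6 rhesus genes higher and 1 lower and 1 of 6 human genes higher and 1 lower, beside the same shares of all genes, among them EPCAM at -2.05 and -2.58 and AIRE at 1.45 and 0.25. Its sums of 35.4 to 36.0 in thymus stood above 24.2 to 32.4 elsewhere on the rhesus arrays, whereas on the human arrays pancreas (24.4 to 24.5) was no lower than thymus (24.2 to 24.4). What part cells other than B cells have in the B cell gene levels was not tested.

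Patterns most like those of the B cell genes were sought by Pearson r over the 10 rhesus arrays. For MS4A1 these were PSMB11 (0.9999), CPB2 (0.9998) and KRTDAP (0.9998), and 1194 other probe sets of 52766 had an r of at least 0.95. For CD79A they were CD40LG (0.974), FCGR3 (0.969) and IRF4 (0.969), with 16 probe sets at that r. For CD22 they were LOC718396 (0.977), ESX1 (0.976) and CAPN6 (0.976), with 70. The arrays fall into 5 pairs of the same RNA, so an r of this kind rests on 5 source levels and is a description.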

How the data were processed

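Total RNA of 5 rhesus macaque sources was labelled and hybridized to 10 rhesus and 10 human arrays. For either array type the authors deposited a single matrix of log2 expression estimates. The submitters' processing notes name RMA, a summary of perfect match probes by probe set. Its version and the set of arrays it was run on were not given in the sources used here. Each matrix was therefore analysed by itself, and levels are compared only within a probe set. Sample labels gave the sources, and the matrix holding a sample gave its array type.

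Symbols came from the platform annotation of each array, and only probe sets with a single symbol stood for genes. A rhesus gene table held the gene numbers of 24629 among 24969 such rhesus probe sets and changed 0 symbols, and human names were kept as given. Sources were compared with the limma functions lmFit and eBayes (version 3.58.1, in R 4.3.3). All probe sets but the controls entered the fit and the Benjamini-Hochberg adjustment. Calls needed an adjusted p under 0.05 and a log2 difference of at least 1 in size. The probe set of highest mean stood for its gene. The fit was tested on simulated data. The number of arrays, 2 for every source and type, limits the precision.

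The 9 genes, the lists and the alternatives were chosen with earlier results of these data known. All probe sets of the 9 genes are named. Of each other list, the text names up to 4 genes called on both array types with the largest rhesus difference, up to 2 called in opposite directions or on 1 array type, and every plasma cell or immunoglobulin gene called in any source. EBF1 and the thymocyte genes in testis are exceptions. Same-numbered arrays of different sources did not deviate together (correlations of -0.025 to 0.010 for rhesus and -0.034 to 0.018 for human arrays, 10 pairs of sources each), so no replicate block was used. Alternatives were quantile normalization, subtraction of array medians or of spiked controls, removal of dim probe sets, calls without a minimum size, an ordinary contrast, a replicate block, other readings of a gene from its probe sets, 1 array left out at a time and pancreas left out.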

Additional observations from a re-analysis of the deposited data

How the results depend on the processing

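The number of B cell genes called in thymus depended on the probe set that stands for a gene. On the rhesus arrays it was 3, and 1 with the probe set of lowest mean, which gave thymus differences of -0.017 for MS4A1 and -0.10 for CD79B. On the human arrays it was 2, and 1 when a gene's probe sets were averaged and 0 with the probe set of lowest mean, where MS4A1 read -0.0074 and CD79A 0.56. When averaged, CD79B on the rhesus arrays (0.86) and CD79A on the human arrays (0.94) were under the minimum difference. A filter that removed probe sets with a mean below the median left 1 gene and 1 probe set called in thymus on the rhesus arrays, in place of 3 and 5, because CD79A, CD79B and the further MS4A1 probe sets were no longer tested. The filter mean includes thymus, and the MS4A1 probe set that stayed passed through its thymus level of 8.34. Its mean over the other sources, 2.72, was below that median.

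In testis on the rhesus arrays 2 genes were called, and 1 under quantile normalization, where CD22 read 0.87, and when probe sets were averaged or the one of lowest mean was used. Leaving out 1 array at a time gave 1 to 2 genes there, with 1 without testis replicate 1. On the human arrays the count of genes and of probe sets in testis was 0, and 1 for both (BANK1) with no minimum difference, and it ranged from 0 to 1 with an array left out, at 1 without testis replicate 4. PAX5 in thymus passed with the spiked controls subtracted (1.09), with no minimum difference (0.91) and without thymus replicate 3 (1.26), and POU2AF1 without thymus replicate 4 (1.16). CD79A on the rhesus arrays read 0.86 without thymus replicate 1.

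With the replicate number as a block the counts of genes in thymus were 3 and 2 and those in testis 2 and 0, and no call changed. The subtraction of array medians, the ordinary contrast, the probe set with the largest SD and the omission of pancreas, which was chosen after seeing the data, kept every count within 1.5 times its value. Subtracting the spiked controls moved the median of all thymus differences by 0.18 (rhesus) and 0.19 (human), of fibroblasts by 0.78 and 0.70, and of pancreas by -1.09 and -1.11. With 2 arrays per source the precision was limited. Of the 24 human probe sets 14 were at or below the level of the controls in every source. Small differences at such levels could not be read as differences in transcript level.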
